A study of Bos taurus with 48 samples.

Results

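The oligonucleotide probes described here read KCNK12 (A_73_100946), PLXNA2 (A_73_110597), the unidentified transcript EE981171 (A_73_110903) and LOC521910 (A_73_112221) in bovine endometrium. They are 4 of 21475 probes, which carry 20602 gene names, and they were chosen by their measured difference between pregnant and cyclic cows on these same arrays, where they were far lower in pregnant cows. The fall in pregnancy is therefore a description here and has no test. Tissue, embryo size, fertility label and the relation with the oxytocin receptor gene OXTR (A_73_100134) were not used to choose them. Cows are named by their state and number as in the labels.

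Endometrium was taken from 22 lactating dairy cows with synchronised cycles, slaughtered on day 17 of the reproductive cycle. Pregnant cows (n = 12) had received a grade 1 blastocyst on day 7, and cyclic cows (n = 10) had received no embryo. Caruncular endometrium, the aglandular nubs to which the placenta later attaches, and intercaruncular endometrium, the glandular tissue between them, came from each cow. Embryos were labelled large (over 20 cm and 75 mg, 7 cows) or small (under 20 cm and 40 mg, 5 cows), and pregnant cows fertile (6) or sub-fertile (6), a label whose criterion the sources used here do not give. Cy5-labelled RNA of each of the 44 samples was hybridised against a Cy3-labelled pool of equal parts of all of them, so every level below is a log2 ratio of a sample to that pool, and 0 is the level of the pool. The arrays number 48, since the caruncular RNA of 4 cows was hybridised again, and the repeats of a cow were averaged.

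KCNK12 belongs to the two-pore domain potassium channels, which carry the leak currents that set the resting potential of a cell, although KCNK12 itself gives little or no current when expressed alone. PLXNA2 encodes plexin A2, which with a neuropilin forms a receptor for class 3 semaphorins, guidance signals of axons, vessels and migrating cells. LOC521910 is described on the array as similar to CYP2C18, a microsomal cytochrome P450, and EE981171 has no gene name. OXTR, to which they are compared, is the receptor through which oxytocin evokes the uterine prostaglandin pulses that end the luteal phase in ruminants, and a conceptus that secretes interferon tau keeps it low.

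The description of EE981171 places it on bovine chromosome 22, from 14335057 to 14334527 in the order listed, a span of 531 bases in a build that the description does not name. OXTR is on chromosome 22 as well in the RefSeq annotation of ARS-UCD2.0. The distance between them was not analysed here, because the builds may differ. The PLXNA2 member probe is listed under an expressed sequence tag described as similar to human PLXNA2, and a further probe (A_73_105449) carries the symbol itself. The sequence of that further probe is shown because the PLXNA2 results turn on how far both probes move together, and the sequences of the member probes were not used here.

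PLXNA2, further probe A_73_105449, 60 bases as listed by the study in lower case: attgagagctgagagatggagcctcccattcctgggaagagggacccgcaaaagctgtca

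The share of spots well above background ranged from 68.8% to 84.0% over the 48 arrays, with group medians of 70.0% to 72.6%. A probe was tested where its Cy5 signal reached 80 units and stood clear of background in 22 or more of the 44 samples, which left 14711 of 21475. All 4 members met this, EE981171 in 44 samples, PLXNA2 in 42, KCNK12 in 41 and LOC521910 in 25. The repeated caruncular arrays of a cow differed by at most 0.09 for KCNK12, 0.18 for PLXNA2, 0.08 for EE981171 and 0.36 for LOC521910 on the log2 scale. The first caruncular array of cow Non-Pregnant_9778 had both EE981171 spots marked as outliers, so its value comes from the repeat alone. Slides (12, of up to 4 arrays) mostly held 1 tissue and 1 state, so slide and group overlap for most samples. The intercaruncular sample of cow Pregnant_3803 stood at the level of cyclic cows for some of these probes. The interferon-induced gene MX2 was at -0.24 in that sample, against at most -3.22 in the intercaruncular samples of cyclic cows.

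KCNK12 was lower in pregnant than in cyclic cows in both tissues. In caruncular tissue its log2 ratio ranged from -3.46 to 1.08 with a median of -1.99 in pregnant cows, and from 0.13 to 1.64 with a median of 0.50 in cyclic cows. The groups were separate except for cow Pregnant_3807, whose value of 1.08 lay above the cyclic median. In intercaruncular tissue it ranged from -2.60 to 1.48 with a median of -0.96 in pregnant cows, and from -0.85 to 1.63 with a median of 0.70 in cyclic cows. There 5 of 12 pregnant cows were not below every cyclic cow, and cows Pregnant_3807 (1.13) and Pregnant_3803 (1.48), both labelled sub-fertile, stood highest among pregnant cows. The mean difference, pregnant less cyclic, was -2.38 (standard error, SE, 0.38) in caruncular tissue, a level 5.22 times lower, and -1.36 (SE 0.42) in intercaruncular tissue. KCNK12 was well above background on 12 of 13 caruncular arrays of pregnant cows, and the lowest signal was 31.2 units. The size of the caruncular fall is thus approximate, and loess after normexp background correction gave -1.97. On the slide of each tissue that held 3 pregnant cows and cow Non-Pregnant_3972, the difference was -0.79 in caruncular tissue and 1.36 in intercaruncular tissue, the opposite direction. A further slide held caruncular arrays of 2 pregnant cows and the repeat array of cow Non-Pregnant_9960, and there it was -1.92. Cow Non-Pregnant_3972 had the lowest intercaruncular KCNK12 of the cyclic cows (-0.85), and cows Pregnant_3807 and Pregnant_3803 were among the 3 pregnant cows on that slide.

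PLXNA2 was also lower in pregnant cows. In caruncular tissue the log2 ratio ranged from -2.55 to 0.08 (median -1.03) in pregnant cows and from -0.29 to 1.32 (median 0.46) in cyclic cows. In intercaruncular tissue it ranged from -2.51 to -0.09 (median -1.29) and from -0.78 to 1.71 (median 0.58). All 12 pregnant cows were below the cyclic mean in each tissue, while 10 and 8 of them were below every cyclic cow. The mean difference was -1.49 (SE 0.27) in caruncular and -2.0 (SE 0.33) in intercaruncular tissue. On the slides shared with cow Non-Pregnant_3972 it was -2.59 and -3.20, and on the further caruncular slide -1.81. Cow Non-Pregnant_3972 had the highest intercaruncular PLXNA2 of the cyclic cows (1.71) and stood at 1.13 in caruncular tissue. The falls on its slides are thus measured from a high cyclic value.

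The further PLXNA2 probe moved less. Its mean difference was -0.68 (SE 0.19, limma adjusted p = 0.012) in caruncular and -0.87 (SE 0.20, limma adjusted p = 0.00415) in intercaruncular tissue. In cyclic cows the log2 ratios of both probes differed by -0.16 to 0.42 in caruncular and -0.30 to 0.75 in intercaruncular tissue (member probe less further probe). In pregnant cows the member probe was lower than the further probe by up to 2.17 on the log2 scale in caruncular tissue (median difference -0.61) and up to 1.86 in intercaruncular tissue (median -1.06). Over cows, both probes kept the same order in cyclic cows, with r = 0.95 and rho = 0.94 (permutation p = 0.00014 and 0.00019, adjusted p = 0.00224 and 0.00376) in caruncular and r = 0.92 and rho = 0.92 (permutation p = 0.00024 and 0.00047, adjusted p = 0.00256 and 0.00376) in intercaruncular tissue. Without the 2 cows farthest from the median of the member probe, r was 0.95 and 0.91. In pregnant cows r was 0.52 and 0.61, and neither passed (permutation p = 0.0832 and 0.0324, adjusted p = 0.19 and 0.0942). These p-values were adjusted over 32 relations among the members and with probes described as the same gene, and the difference of r between the states was not tested.

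EE981171 showed the widest gap. In caruncular tissue its log2 ratio ranged from -3.49 to -1.07 (median -1.97) in pregnant cows and from -0.85 to 2.14 (median 0.97) in cyclic cows. All 12 pregnant cows were below every cyclic cow, as held for 0.306% of all probes tested (0.197% in intercaruncular tissue). In intercaruncular tissue it ranged from -4.35 to 0.32 (median -3.13) and from -1.12 to 2.03 (median 1.25), and cows Pregnant_3803, Pregnant_3807 and Pregnant_9790 lay at or above the lowest cyclic value. The mean difference was -2.90 (SE 0.34) in caruncular and -3.28 (SE 0.52) in intercaruncular tissue, or 7.45 and 9.71 times lower. The probe was saturated on 1 caruncular array of cyclic cows, so the caruncular fold may be understated. Without cow Pregnant_3803 the intercaruncular difference was -3.54. On the slides shared with cow Non-Pregnant_3972 it was -2.27 in caruncular and -0.97 in intercaruncular tissue, and on the further caruncular slide -1.72.

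LOC521910 was the dimmest member. Its sample signal was well above background on 4 of 13 caruncular arrays of pregnant cows, on all 13 of cyclic cows and on every intercaruncular array. The caruncular log2 ratio ranged from -3.66 to -0.80 (median -2.39) in pregnant cows and from -1.83 to 2.49 (median -0.23) in cyclic cows. The intercaruncular log2 ratio ranged from -2.25 to -0.02 (median -1.13) and from -1.25 to 2.41 (median 0.38). Cyclic cows spread widely, with cows Non-Pregnant_1940, Non-Pregnant_2952 and Non-Pregnant_9786 at 1.49 to 2.49 in caruncular tissue and cows Non-Pregnant_3811 and Non-Pregnant_9813 at -1.83 and -1.80. The mean difference was -2.42 (SE 0.47) in caruncular and -1.87 (SE 0.40) in intercaruncular tissue, and 10 and 5 of 12 pregnant cows were below every cyclic cow. Since 9 of the 13 caruncular arrays of pregnant cows did not measure the probe well above background, the size of that difference is uncertain. On the slides shared with cow Non-Pregnant_3972 it was -1.68 and -0.87, and on the further caruncular slide -2.80.

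Of 3 other probes described as CYP2C18, 2 did not pass the filter, in 7 and 1 of 44 samples. The remaining one, A_73_119972, fell by 3.40 on the log2 scale (SE 0.57, limma adjusted p = 0.000156) in caruncular and by 2.49 (SE 0.48, limma adjusted p = 0.00112) in intercaruncular tissue. It passed the filter in 29 of 44 samples, so the size of these falls is uncertain as well. It is listed as LOC517472, a different entry from LOC521910 with a like description, and cross-hybridisation between them was not tested. In cyclic cows both followed each other with r = 0.84 and rho = 0.79 in caruncular tissue (permutation p = 0.0032 and 0.00917, adjusted p = 0.0128 and 0.0489) and r = 0.87 and rho = 0.73 in intercaruncular tissue (permutation p = 0.0021 and 0.0208, adjusted p = 0.0119 and 0.0834). Without the 2 farthest cows r was 0.66 and 0.79. In pregnant cows r was 0.49 and 0.44, with adjusted p of 0.224 and 0.268 by permutation.

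All 4 members were past 1.5-fold and a limma adjusted p of 0.05 downwards in both tissues, where 4.23% of all probes tested were in caruncular and 3.27% in intercaruncular tissue, of 10% and 7.28% called in either direction. The contrast had picked the members, so nothing is read from that count. With slide as a random block, intercaruncular KCNK12 lost the call (-0.89, limma adjusted p = 0.311). With slide as a fixed block in caruncular tissue, KCNK12 (limma adjusted p = 0.565), EE981171 (0.181) and LOC521910 (0.384) lost the call. PLXNA2 kept it there (limma adjusted p = 0.0102), which is no test, since this contrast chose the probe. In intercaruncular tissue that block leaves cow Non-Pregnant_3972 as the only cyclic cow compared, so differences alone are given. They were 1.36 for KCNK12, -3.20 for PLXNA2, -0.97 for EE981171 and -0.87 for LOC521910. Among the 622 probes lower in pregnant caruncular tissue, EE981171 ranked 3, KCNK12 5 and PLXNA2 31 by size, and LOC521910 is given no rank, since most of its caruncular values in pregnant cows lay near background. Among 481 in intercaruncular tissue, EE981171 ranked 1, PLXNA2 4, LOC521910 5 and KCNK12 23. OXTR ranked 2 in both, at -2.98 (SE 0.315) and -2.94 (SE 0.48). In whole tissue a lower ratio cannot tell fewer cells of one type from less RNA in each cell.

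**Figure D1:**
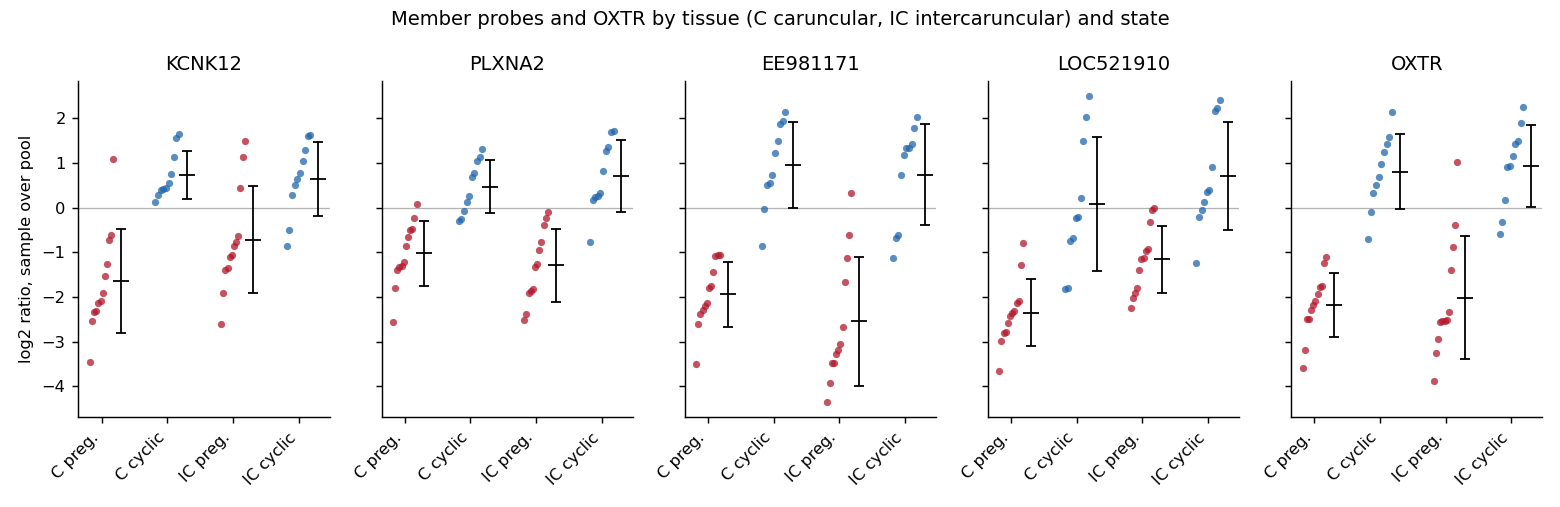
Log2 ratio of sample to pool for the 4 member probes and OXTR in caruncular (C) and intercaruncular (IC) endometrium of pregnant (red, n = 12) and cyclic (blue, n = 10) cows. Each point is a cow, ordered by value within its group, and bars give mean ± SD. EE981171 in caruncular tissue shows no overlap between the states, while KCNK12 in intercaruncular tissue overlaps for 5 pregnant cows.

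The order of the 4 groups differed between members. KCNK12 had means of -1.65 ± 1.17 (SD) in caruncular pregnant, -0.72 ± 1.19 in intercaruncular pregnant, 0.64 ± 0.83 in intercaruncular cyclic and 0.73 ± 0.53 in caruncular cyclic samples. For PLXNA2 the order was intercaruncular pregnant (-1.30 ± 0.82), caruncular pregnant (-1.02 ± 0.73), caruncular cyclic (0.47 ± 0.59) and intercaruncular cyclic (0.70 ± 0.80). EE981171 ran from intercaruncular pregnant (-2.54 ± 1.44) over caruncular pregnant (-1.94 ± 0.73) and intercaruncular cyclic (0.74 ± 1.12) to caruncular cyclic (0.95 ± 0.95). Within a state the tissues of these 3 members were closer than 1 SD of the wider group. LOC521910 ran from caruncular pregnant (-2.35 ± 0.75) over intercaruncular pregnant (-1.16 ± 0.75) and caruncular cyclic (0.07 ± 1.5) to intercaruncular cyclic (0.71 ± 1.21). In pregnant cows its tissues were apart by more than 1 SD.

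Tissue was compared as the mean over both states of caruncular less intercaruncular. LOC521910 was lower in caruncular tissue by a mean difference of -0.92 (SE 0.31, limma adjusted p = 0.0118), in 20 of 22 cows. Of the 4 members it was the only one past an adjusted p of 0.05 in that fit, where 57.1% of all probes tested passed and 30.2% were lower in caruncular tissue. Its caruncular values in pregnant cows lie near background, so this difference rests in part on a dim signal. With slide as a random block its adjusted p was 0.0492. Tissue and slide overlapped on all slides except those of cows Pregnant_9790 and Non-Pregnant_9786, where both tissues shared a slide. On these slides the difference was -2.03 in cow Pregnant_9790 and -0.39 in cow Non-Pregnant_9786. In all other cows the first arrays of the tissues were scanned on different dates. Tissue and scan date therefore cannot be told apart in those cows, for any probe.

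KCNK12 was lower in caruncular tissue in 12 of 12 pregnant cows, with within-cow differences from -2.21 to -0.05 and a median of -0.94. In cyclic cows the differences ran from -0.87 to 1.25 (median 0.02), and 4 of 10 were below 0. The mean over states was -0.42 (SE 0.29) and did not pass (limma adjusted p = 0.218). When each cow entered as a fixed block the SE of that difference was 0.12 and its limma adjusted p 0.00379, in a fit that called 70.5% of all probes. A random block for the cow gave 0.0416. On their shared slides the differences were -1.06 in cow Pregnant_9790 and 0.51 in cow Non-Pregnant_9786. How the tissue difference varied with state was not tested, since the pregnancy contrast chose the probe.

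EE981171 was higher in caruncular tissue in 17 of 22 cows. The mean over states was 0.41 (SE 0.32, limma adjusted p = 0.284), and a fixed block for each cow gave 0.0819. Within pregnant cows the differences ran from -2.44 in cow Pregnant_3803 to 2.50. PLXNA2 had a mean of 0.02 (SE 0.22, limma adjusted p = 0.942), with within-cow differences from -1.23 to 1.37 in pregnant and from -0.57 to 0.52 in cyclic cows.

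The level of a probe in one tissue of a cow was set against its level in the other tissue, with 8 relations in the family. By first arrays, cows that shared a slide in one tissue also shared a slide in the other. The r given here does not separate the cow from that shared grouping, and it was not computed within slides. KCNK12 agreed between the tissues in both states. In pregnant cows r was 0.87 and rho 0.80 (permutation p = 0.00029 and 0.00276, adjusted p = 0.000773 and 0.00552), and in cyclic cows r was 0.70 and rho 0.78 (permutation p = 0.0256 and 0.011, adjusted p = 0.0341 and 0.0176). PLXNA2 agreed between the tissues in cyclic animals, with r = 0.94 and rho = 0.96 (permutation p = 0.0001 and 3e-05, adjusted p = 0.000773 and 0.00024). In pregnant animals its r was 0.32 and its rho 0.36 (permutation p = 0.315 and 0.247, adjusted p = 0.315 and 0.247). The difference between the states was not tested.

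LOC521910 passed in cyclic cows with r = 0.94 and rho = 0.88 (permutation p = 0.00021 and 0.00156, adjusted p = 0.000773 and 0.00552). It also passed in pregnant cows with r = 0.70 and rho = 0.64 (permutation p = 0.00948 and 0.0301, adjusted p = 0.0152 and 0.0401), although its caruncular signal in pregnant cows was well above background on 4 of 13 arrays, so that relation rests mostly on values near background. EE981171 passed in cyclic cows with r = 0.77 and rho = 0.85 (permutation p = 0.00903 and 0.00263, adjusted p = 0.0152 and 0.00552), and in pregnant cows r was 0.52 and rho 0.53 (permutation p = 0.0823 and 0.0803, adjusted p = 0.0941 and 0.0918). Without the 2 cows farthest from the caruncular median, r in cyclic cows was 0.70 for KCNK12, 0.96 for PLXNA2, 0.54 for EE981171 and 0.88 for LOC521910, and in pregnant cows 0.80, 0.22, 0.29 and 0.62. The cyclic relation of EE981171 thus rested partly on those cows. Over all probes the median r between the tissues was 0.47 in pregnant and 0.57 in cyclic cows. These relations were chosen after the values were seen.

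**Figure D2:**
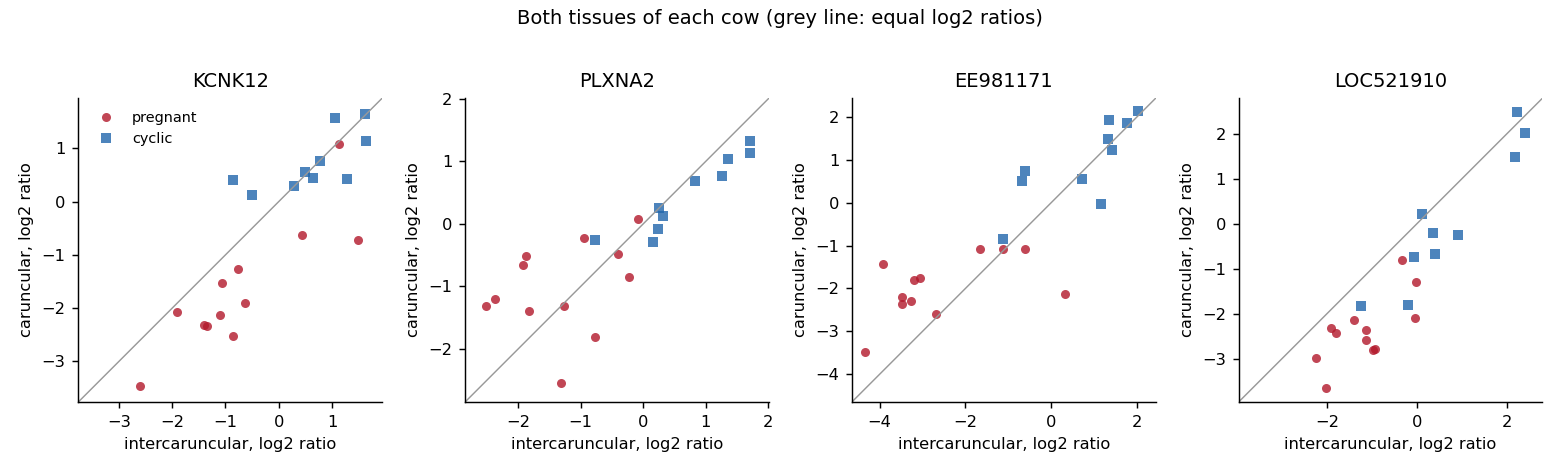
Caruncular against intercaruncular log2 ratio of each cow for the 4 member probes, pregnant cows as red circles (n = 12) and cyclic cows as blue squares (n = 10). Points below the grey line of equal ratios are lower in caruncular tissue, as all 12 pregnant cows are for KCNK12 and LOC521910.

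Embryo size was compared among pregnant cows, large (n = 7) less small (n = 5). PLXNA2 in intercaruncular tissue was lower with a large embryo. The small-embryo cows had log2 ratios of -0.40 (cow Pregnant_932), -0.23 (Pregnant_9246), -0.09 (Pregnant_977), -1.27 (Pregnant_3807) and -0.77 (Pregnant_3956). The large-embryo cows ranged from -2.51 to -0.95 with a median of -1.87. The groups overlapped between cow Pregnant_3807 with a small embryo and cow Pregnant_9790 with a large one. For 1.98% of all probes tested every large-embryo cow was below every small-embryo cow. The difference was -1.27 (SE 0.28, limma adjusted p = 0.0341), and at this threshold 3.7% of all probes tested passed in either direction and 2.12% were lower with a large embryo. On the slides that held both sizes it was -1.68, -0.33 and -1.46, and with slide as a fixed block -1.19 (SE 0.25, adjusted p = 0.028). Without the filter on signal the adjusted p was 0.0514. It also rose above 0.05 when cow Pregnant_932 (0.0948), Pregnant_9246 (0.0964), Pregnant_3805 (0.0703), Pregnant_977 (0.0616), Pregnant_1943 (0.0663) or Pregnant_3957 (0.0603) was left out, with differences between -1.27 and -1.16.

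In caruncular tissue the small-embryo values of PLXNA2 were -1.81 (cow Pregnant_3956), -0.49 (Pregnant_932), -0.85 (Pregnant_9246), 0.08 (Pregnant_977) and -1.31 (Pregnant_3807), against -2.55 to -0.23 with a median of -1.21 in large-embryo cows. The groups overlapped over most of their range. The difference was -0.25 (SE 0.40, limma adjusted p = 0.933), where 0 probes passed and 6.92% had an unadjusted p under 0.05. The size effect differed between the tissues by 1.03 (SE 0.40, caruncular less intercaruncular), which did not pass (limma adjusted p = 0.574, 0.0% of all probes called).

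The further PLXNA2 probe did not show the intercaruncular difference. Its small-embryo values ran from -0.54 to -0.23 and its large-embryo values from -1.18 to 0.15, with a difference of -0.15 (SE 0.20, limma adjusted p = 0.704). The member probe was below the further probe by a median of 1.19 on the log2 scale with a large embryo (median difference -1.19, range -1.86 to -1.02), while with a small embryo the difference ran from -0.72 to 0.17. The call therefore rests on 1 of 2 probes for the gene. Levels of cell type markers are set beside it, without a test by embryo size. The mean log2 ratio of 7 endothelial genes in intercaruncular tissue ranged from -0.53 to 0.11 (median -0.39) with a large and from -0.14 to 0.10 with a small embryo, and the stroma list (10 genes) from -0.58 to 0.11 (median -0.48) and from -0.19 to 0.17. The smooth muscle list (6 genes) ranged from -1.57 to -0.41 (median -0.82) with a large and from -0.80 to 0.13 (median -0.47) with a small embryo. All 3 ranges overlapped between the sizes. Over the 12 intercaruncular samples of pregnant cows, PLXNA2 followed the endothelial mean with r = 0.87 and rho = 0.84 (permutation p = 0.00054 and 0.00123, adjusted p = 0.0432 and 0.0984 over 80 relations), and r was 0.88 without the 2 cows farthest from its median. Their part in the size difference was not tested.

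**Figure D3:**
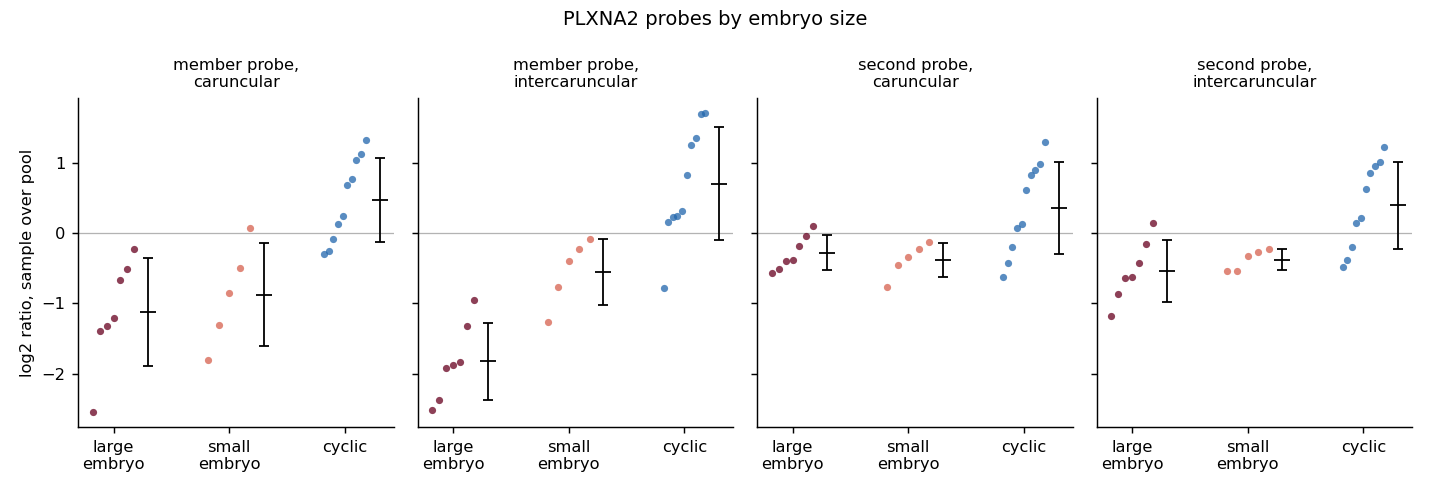
Log2 ratio of the PLXNA2 member probe and of the further PLXNA2 probe by embryo size (large n = 7, small n = 5) and in cyclic cows (n = 10), in caruncular and intercaruncular endometrium. Points are cows and bars mean ± SD. Most large-embryo cows lie below the small-embryo cows for the member probe in intercaruncular tissue, with overlap between cows Pregnant_9790 and Pregnant_3807. The further probe shows no such difference.

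The other members did not differ by embryo size past the threshold. In caruncular tissue large less small was -0.06 (SE 0.64) for KCNK12, 0.09 (SE 0.40) for EE981171 and -0.37 (SE 0.40) for LOC521910, with limma adjusted p of 0.896 to 0.992. In intercaruncular tissue it was 0.04 (SE 0.66) for KCNK12, 0.05 (SE 0.79) for EE981171 and -0.29 (SE 0.41) for LOC521910, with limma adjusted p of 0.734 to 0.981. LOC521910 was well above background on 3 of 8 caruncular arrays of large-embryo cows and 1 of 5 of small-embryo cows. Its caruncular comparison therefore rests mostly on values near background. The small-embryo cows held both extremes of KCNK12 in caruncular tissue, -3.46 in cow Pregnant_3956 and 1.08 in cow Pregnant_3807, with -2.53, -1.90 and -1.27 between them. The signal was well above background on 4 of these 5 arrays and was 31.2 units on the dimmest, so the low extreme is uncertain. OXTR itself differed by 0.42 (SE 0.38) and 0.33 (SE 0.75), also short of the threshold (limma adjusted p = 0.879 and 0.847).

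By fertility label, KCNK12 and EE981171 had lower values in fertile cows, without passing the correction. KCNK12 in caruncular tissue ranged from -3.46 to -1.90 (median -2.32) in the 6 fertile cows and from -2.13 to 1.08 (median -1.0) in the 6 sub-fertile cows. In intercaruncular tissue it ranged from -2.60 to -0.63 (median -1.38) and from -1.10 to 1.48 (median -0.16). Fertile less sub-fertile was -1.57 (SE 0.45, limma adjusted p = 0.277) and -1.47 (SE 0.495, limma adjusted p = 0.244). KCNK12 was well above background on 6 of 7 caruncular arrays of fertile cows, with a median signal of 78 units. Loess after normexp background correction gave a caruncular difference of -1.15. For EE981171 the ranges were -3.49 to -1.76 and -2.13 to -1.07 in caruncular tissue, and -4.35 to -2.68 and -3.93 to 0.32 in intercaruncular tissue. Its differences were -1.02 (SE 0.27, limma adjusted p = 0.273) and -1.69 (SE 0.62, limma adjusted p = 0.283). The label groups of both probes overlapped in both tissues, and sub-fertile cows spread more widely in intercaruncular tissue, with an SD of 1.60 for EE981171 against 0.56 in fertile cows.

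LOC521910 was not well above background on any caruncular array of a fertile cow and on 4 of 6 of sub-fertile cows. The size of its caruncular difference is therefore uncertain and no fold is given, and the fitted difference of -0.75 (SE 0.35) did not pass (limma adjusted p = 0.369). In intercaruncular tissue it was -0.86 (SE 0.33, limma adjusted p = 0.297), from -2.25 to -0.98 in fertile and from -1.91 to -0.02 in sub-fertile cows. PLXNA2 differed by -0.315 (SE 0.39) and -0.11 (SE 0.45), with limma adjusted p of 0.734 and 0.926. OXTR was lower in fertile cows by a difference of -1.06 (SE 0.26, limma adjusted p = 0.261) and -1.56 (SE 0.595, limma adjusted p = 0.291). In caruncular tissue every fertile cow had a lower OXTR than every sub-fertile cow, as held in that direction for 0.517% of all probes.

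No member passed an adjusted p of 0.05 by fertility label, and in these fits 0 of 14711 probes passed in caruncular and 7 (0.0476%) in intercaruncular tissue, while 13.8% and 13.6% had an unadjusted p under 0.05. Slides and label overlapped. Counting first arrays, a single slide per tissue held both labels, 2 cows of each. There KCNK12 differed by -0.52 in caruncular and 0.19 in intercaruncular tissue, EE981171 by -0.74 and -0.45, PLXNA2 by -0.38 and 0.69 and LOC521910 by 0.44 and -0.23. For 3 of these 8 values the direction was opposite to that over all cows. A further caruncular slide held the repeat array of fertile cow Pregnant_926 and the array of sub-fertile cow Pregnant_9790. On it every member was lower in cow Pregnant_926. The values were -2.29 and -0.62 for KCNK12, -1.23 and -0.23 for PLXNA2, -2.40 and -1.09 for EE981171 and -3.84 and -2.09 for LOC521910. The label effect did not differ past the threshold between the tissues for any member (limma adjusted p = 0.623 to 0.91).

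**Figure D4:**
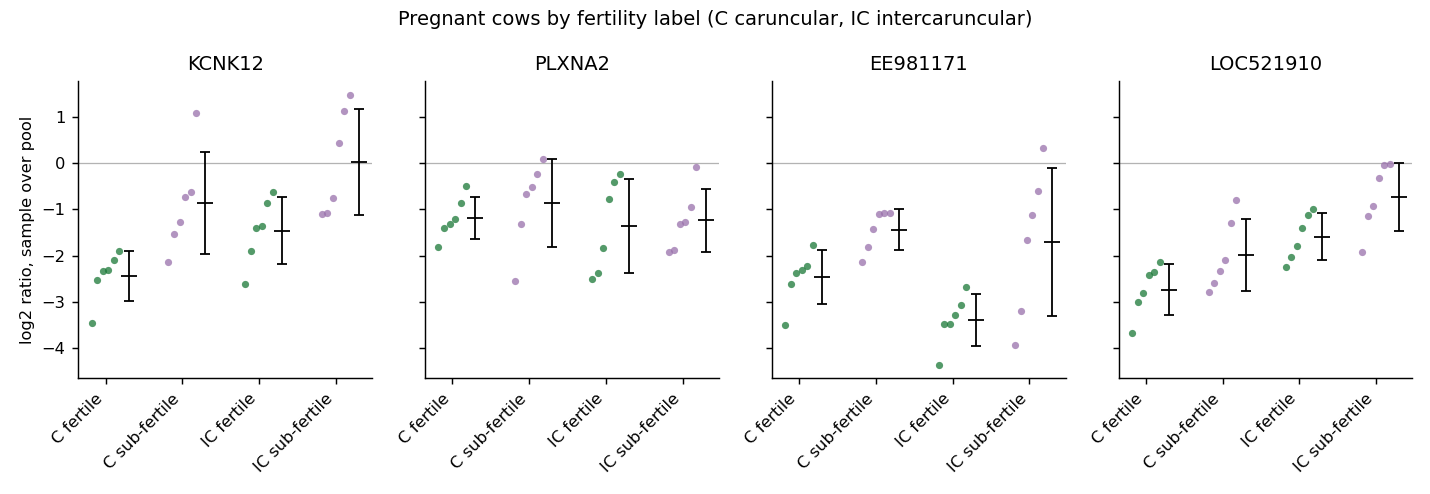
Log2 ratio of the 4 member probes in pregnant cows labelled fertile (green, n = 6) and sub-fertile (purple, n = 6), in caruncular (C) and intercaruncular (IC) endometrium. Points are cows and bars mean ± SD. Fertile cows lie lower on average for KCNK12 and EE981171, with overlap, and PLXNA2 shows little difference in either tissue.

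The relation with OXTR was computed within each state and tissue, since the states separate on these probes and a pooled correlation would restate their fall. Of 16 relations, 8 passed an adjusted p of 0.05 by Pearson's r and 7 by Spearman's rho. EE981171 passed in all 4 groups, KCNK12 in 3, LOC521910 in 1 and PLXNA2 in 0. Without the 2 samples farthest from the median of OXTR in each group, 5 relations passed.

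EE981171 followed OXTR cow by cow. In caruncular tissue r was 0.98 and rho 0.95 in cyclic cows (permutation p = 1e-05, the smallest the resamples can give, and 0.0001, adjusted p = 8e-05 and 0.0008), and r was 0.87 and rho 0.81 in pregnant cows (permutation p = 0.00024 and 0.00205, adjusted p = 0.00072 and 0.00547). In intercaruncular tissue r was 0.95 and rho 0.93 in cyclic cows (permutation p = 4e-05 and 0.00036, adjusted p = 0.000213 and 0.00192), and r and rho were 0.99 in pregnant cows (permutation p = 1e-05 for both, adjusted p = 8e-05 and 0.00016). Among the other probes tested, none had a higher r with OXTR in 3 of the groups, and 0.143% had one in caruncular tissue of pregnant cows. Without the 2 farthest samples r was 0.97, 0.71, 0.92 and 0.98 in the order given, and the adjusted p of the second was then 0.0567.

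The difference of both log2 ratios, EE981171 less OXTR, shifted between groups. In caruncular tissue it ran from -0.34 to 0.86 (median 0.16) in pregnant and from -0.19 to 0.51 (median 0.23) in cyclic samples. In intercaruncular tissue it ran from -0.91 to -0.22 (median -0.54) in pregnant and from -0.84 to 0.40 (median -0.10) in cyclic samples. Cow Pregnant_3803 had 0.32 for EE981171 and 1.03 for OXTR in intercaruncular tissue, and -2.13 and -1.78 in caruncular tissue. Without that cow r in pregnant cows was 0.90 and 0.99. Samples were also centred on the mean of their group on a slide, over slides that held more than 1 sample of the group. This left 11 of 12 pregnant and 8 of 10 cyclic cows per tissue. Within slides r was 0.81 in caruncular pregnant, 0.99 in caruncular cyclic and 0.98 in both intercaruncular groups.

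KCNK12 followed OXTR in pregnant cows, with r = 0.87 and rho = 0.86 in caruncular tissue (permutation p = 0.00027 and 0.0007, adjusted p = 0.00072 and 0.00275) and r = 0.91 and rho = 0.85 in intercaruncular tissue (permutation p = 7e-05 and 0.00086, adjusted p = 0.00028 and 0.00275). In the latter group KCNK12 ranked 3 among 14675 probes, EE981171 being first. Without the 2 farthest samples r was 0.85 and 0.84, and within slides 0.77 and 0.88. In cyclic cows r was 0.48 and rho 0.58 in caruncular tissue, which did not pass (permutation p = 0.166 and 0.0879, adjusted p = 0.265 and 0.141). In intercaruncular tissue r was 0.74 and rho 0.68 (permutation p = 0.015 and 0.0357, adjusted p = 0.03 and 0.0715), and r without the 2 farthest samples was 0.57, so that relation rests on those samples. Cow Pregnant_3807 had the highest KCNK12 (1.08) and the highest OXTR (-1.11) of pregnant cows in caruncular tissue. Its KCNK12 lay within the range of cyclic cows and its OXTR below it.

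LOC521910 followed OXTR in 1 group, intercaruncular tissue of pregnant cows, with r = 0.76 and rho = 0.74 (permutation p = 0.00373 and 0.00817, adjusted p = 0.00853 and 0.0187). Without the 2 farthest samples r was 0.50, so the relation rests on them, and within slides it was 0.56. In the other groups r was 0.50 in caruncular pregnant, 0.44 in caruncular cyclic and 0.20 in intercaruncular cyclic cows, with adjusted p of 0.178, 0.298 and 0.672 by permutation. PLXNA2 had r of 0.18 in both pregnant groups and -0.09 in both cyclic groups, with rho of 0.25, 0.31, -0.12 and -0.07 and adjusted p of 0.672 to 0.813 by permutation. Between 32.5% and 64.7% of all probes tested had a higher r with OXTR than PLXNA2 did.

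**Figure D5:**
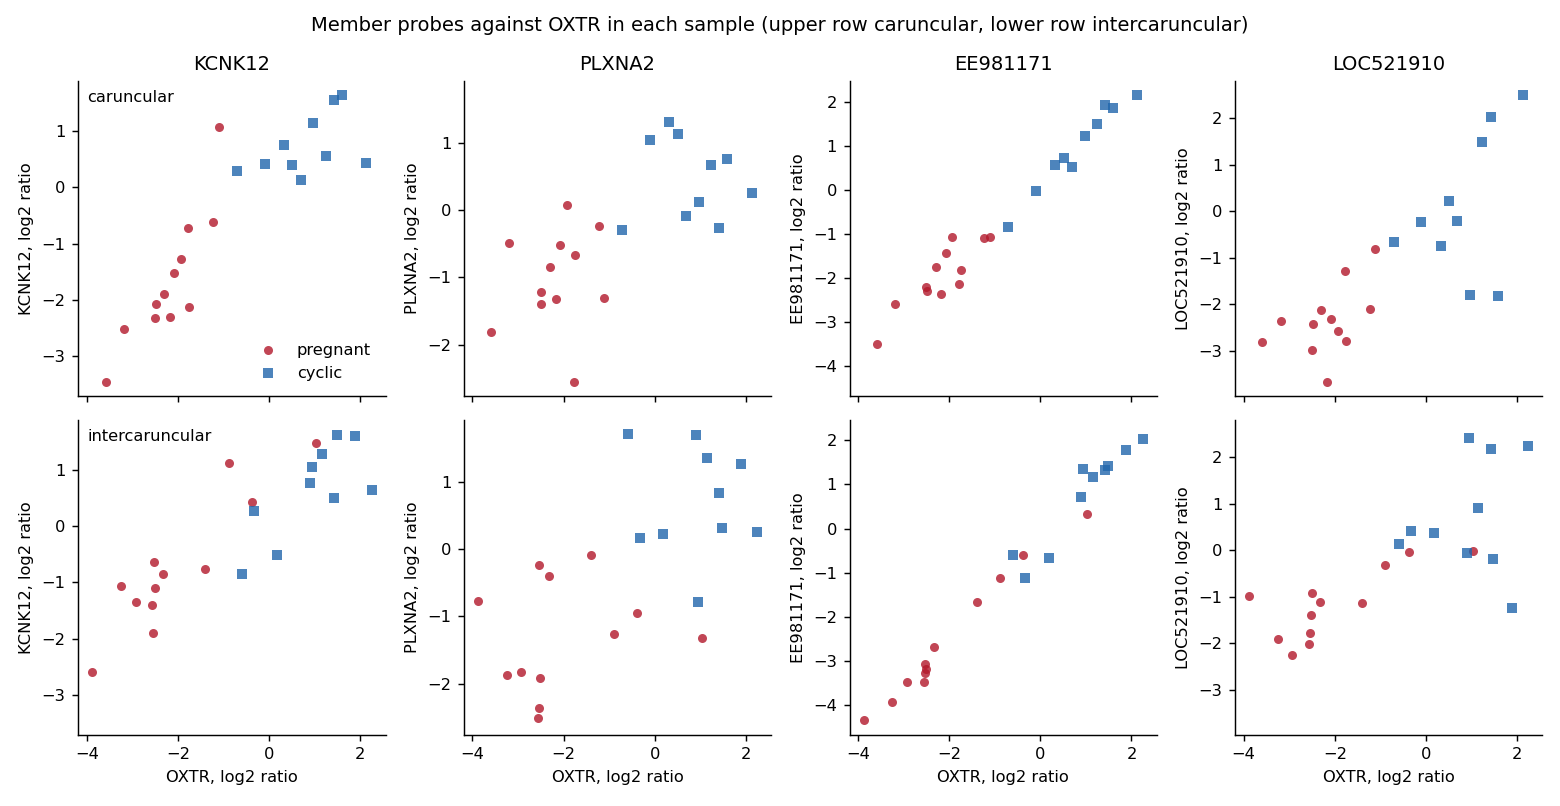
Log2 ratio of each member probe against that of OXTR in the same sample, caruncular endometrium in the upper row and intercaruncular in the lower row, pregnant cows as red circles (n = 12) and cyclic cows as blue squares (n = 10). EE981171 lies close to a line in every panel, KCNK12 follows in pregnant cows, and PLXNA2 scatters at all levels of OXTR within a state.

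Among themselves, KCNK12 and EE981171 went together in pregnant cows, with r = 0.79 and rho = 0.87 in caruncular (permutation p = 0.00261 and 0.00039, adjusted p = 0.0119 and 0.00376) and r = 0.91 and rho = 0.88 in intercaruncular tissue (permutation p = 8e-05 and 0.00037, adjusted p = 0.00224 and 0.00376). KCNK12 and LOC521910 also went together in pregnant cows, with r = 0.80 and rho = 0.78 in caruncular (permutation p = 0.0025 and 0.00395, adjusted p = 0.0119 and 0.0253) and r = 0.72 and rho = 0.62 in intercaruncular tissue (permutation p = 0.00767 and 0.0374, adjusted p = 0.0273 and 0.115). The caruncular relation rests mostly on LOC521910 values near background, since 4 of 13 arrays measured it well above. In cyclic cows the r of KCNK12 and LOC521910 was -0.18 and -0.10. In cyclic intercaruncular tissue KCNK12 and EE981171 had r = 0.76 and rho = 0.67 (permutation p = 0.0128 and 0.0395, adjusted p = 0.0411 and 0.115) and r = 0.54 without the 2 farthest cows. EE981171 and LOC521910 had r = 0.80 and rho = 0.71 in intercaruncular tissue of pregnant cows (permutation p = 0.00213 and 0.0129, adjusted p = 0.0119 and 0.0591), which was 0.58 without the 2 cows farthest from the median of EE981171. Without the 2 cows farthest from the median of KCNK12, r was 0.69 and 0.84 with EE981171 and 0.67 and 0.49 with LOC521910 in pregnant cows. PLXNA2 passed with no other member in any group, with r from -0.53 to 0.55 (adjusted p at or above 0.176 by permutation).

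The probes most alike to each member were found from the deviations from the 4 group means over all 44 samples, among 14380 probes with a value in each. For EE981171 they were OXTR (r = 0.96), the unidentified transcript CB220965 (0.80) and KCNK12 (0.78). For KCNK12 they were OXTR (0.79), EE981171 (0.78) and SGSH (0.76), a lysosomal sulfatase of heparan sulfate breakdown. For PLXNA2 they were LIMS2 (0.76), an adaptor of focal adhesions, CLASP2 (0.73), a protein of microtubule ends, and MCAM (0.72), an adhesion molecule of vessels and smooth muscle. For LOC521910 they were the CYP2C18 probe A_73_119972 (0.75), the unidentified transcript EE912650 (0.74) and CCNB3 (0.68), a cyclin.

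The potassium channel, plexin and semaphorin families and the oxytocin pathway were read as lists. The lists were set from gene names, and 5.78% and 4.01% of all probes rose past the threshold in caruncular and intercaruncular tissue. Of 5 other two-pore domain potassium channels with a probe passing the filter, KCNK7 rose in pregnant cows by 0.70 (SE 0.20, limma adjusted p = 0.0118) in caruncular and 0.77 (SE 0.21, limma adjusted p = 0.0117) in intercaruncular tissue on the log2 scale, and 0 fell. Of 8 plexins, read for PLXNA2 from the further probe, 1 rose and 2 fell in caruncular tissue and 1 fell in intercaruncular tissue. The intercaruncular fall and 1 of the caruncular falls are those of PLXNA2 itself, a gene chosen by its fall, so these counts partly restate that choice. PLXNB3, a semaphorin receptor of the B class, fell by 0.70 on the log2 scale (SE 0.18, limma adjusted p = 0.00535), and PLXNC1, the receptor of semaphorin 7A, rose by 0.59 (SE 0.17, limma adjusted p = 0.0125) in caruncular tissue. The median change of the plexins, PLXNA2 included, was -0.36 in caruncular and -0.24 in intercaruncular tissue, against -0.04 and -0.01 over all probes.

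Of 17 semaphorins and neuropilins, 4 fell in caruncular and 3 in intercaruncular tissue and 0 rose, with median changes of -0.26 and -0.31. SEMA5B, a transmembrane semaphorin, fell by 1.52 on the log2 scale in each tissue (SE 0.18 and 0.17, limma adjusted p = 2.06e-06 and 1.9e-06). NRP1, the co-receptor through which class 3 semaphorins reach plexin A receptors, fell by 0.61 on the log2 scale (SE 0.14, limma adjusted p = 0.00388) and by 0.74 (SE 0.16, limma adjusted p = 0.0026). The secreted ligands SEMA3F and SEMA3G fell by 0.73 and 0.62 on the log2 scale in caruncular tissue, and SEMA3A fell by 0.63 in intercaruncular tissue, with limma adjusted p of 0.0077, 0.0128 and 0.0242.

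Of 15 genes of the oxytocin and prostaglandin pathway other than OXTR, 2 rose and 2 fell in each tissue. ESR1, the oestrogen receptor, fell by 0.96 on the log2 scale (SE 0.21, limma adjusted p = 0.00232) in caruncular and by 0.86 (SE 0.19, limma adjusted p = 0.00286) in intercaruncular tissue. PLA2G4A, which frees arachidonic acid, rose by 0.62 and 0.69 on the log2 scale (limma adjusted p = 0.0293 and 0.0273), and CBR1, a reductase of prostaglandins, rose by 0.80 and 0.78 (limma adjusted p = 0.0169 and 0.0142). AKR1B1, a prostaglandin F synthase, fell by 0.73 on the log2 scale in caruncular tissue (limma adjusted p = 0.0264), and PTGES, a prostaglandin E synthase, fell by 0.91 on the log2 scale in intercaruncular tissue (limma adjusted p = 0.00453).

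Markers of the cell types that endometrium holds also differed by state, with log2 changes given here as pregnant less cyclic in caruncular and then intercaruncular tissue. Of 6 smooth muscle genes, 4 fell in each tissue. The contractile proteins MYH11 (-0.88 and -0.79), ACTG2 (-1.17 and -1.04), CNN1 (-1.37 and -1.35) and TAGLN (-0.92 and -1.08) had limma adjusted p of 0.000569 to 0.0326. The mean log2 ratio of the list ranged from -1.33 to 0.44 in caruncular pregnant, -0.26 to 0.95 in caruncular cyclic, -1.57 to 0.13 in intercaruncular pregnant and -0.94 to 0.71 in intercaruncular cyclic cows. Of 7 endothelial genes, 2 fell in each tissue, PECAM1 (-1.29 and -1.52), an adhesion molecule of vessels, and TEK (-0.61 and -0.75), the angiopoietin receptor, with limma adjusted p of 4.89e-05 to 0.000977. Their list ranged from -0.63 to 0.45, -0.37 to 0.60, -0.53 to 0.11 and -0.02 to 0.72 in the same order of groups.

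Of 9 epithelial genes, 2 rose and 3 fell in caruncular and 3 rose and 1 fell in intercaruncular tissue. The keratin gene KRT7 fell in both (-2.07 and -0.75, limma adjusted p = 8.45e-06 and 0.0165), and the keratins KRT18 (-0.86) and KRT19 (-0.77) in caruncular tissue. The junction genes CDH1 (1.02 and 0.71) and CLDN4 (0.95 and 1.10) rose in both, and CLDN3 (0.60) in intercaruncular tissue. Of 10 stromal genes, 1 rose and 2 fell in caruncular and 4 fell in intercaruncular tissue. The matrix genes COL3A1 (-0.92 and -1.32) and POSTN (-0.67 and -0.70) fell in both, COL1A1 (-1.01) and COL1A2 (-0.84) in intercaruncular tissue, and the growth factor receptor gene PDGFRA rose (0.82) in caruncular tissue.

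Of 13 leukocyte genes, CSF1R, a receptor of macrophages, rose in both tissues (0.73 and 0.61) and NKG7, of cytotoxic lymphocytes, in caruncular tissue (0.75). Of 12 conceptus genes on the array 1 passed the filter, PAG1, and its change missed the threshold (limma adjusted p = 0.528 and 0.348). The part of these cell types in the members' fall was not tested. Among 80 within-group relations of the members with the epithelial, stromal, smooth muscle, endothelial and leukocyte means, that of PLXNA2 with the endothelial mean in intercaruncular tissue of pregnant cows was the only one past an adjusted p of 0.05 by Pearson's r, and 0 passed by Spearman's rho.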

How the data were processed

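Endometrial RNA of 22 cows was measured on 48 two-colour Agilent arrays of 60-base probes, with sample RNA in Cy5 and the pool in Cy3 and no dye swap. Per the file headers, Agilent Feature Extraction 9.5.3.1 gave each spot a background-subtracted, dye-normalised intensity for each dye and a log10 ratio of Cy5 to Cy3, and these were taken as deposited. The table of log2 ratios that the authors deposited, 17876 rows of which 17855 matched a probe, differed from the scanner ratios by a median of 0.00156 and served as an alternative. Flags for outliers, saturation and signal well above background are given per spot as deposited.

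Here the log10 ratios were converted to log2, spots not marked as outliers were averaged per probe, each array was centred on its median and the repeat arrays of 4 samples were averaged, giving 44 samples. Probes were kept at a Cy5 signal of at least 80 units and well above background in at least 22 samples. limma 3.58.1 in R 4.3.3 fitted each contrast over all 14711 probes kept, with Benjamini-Hochberg adjustment and a threshold of 0.05, and for pregnancy also 1.5-fold. Each tissue was fitted separately, states or pregnant subgroups alone, and tissue over all 44 samples. p-values for correlations came from 100000 two-sided permutations in Python 3.11.15 with scipy 1.17.1. Each sample is 1 cow, and the number of arrays limits the precision. The fits were tested on simulated data.

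The members, gene lists and relations were chosen with earlier results of these data known. The genes named are the members, OXTR, other probes described as a member's gene, list genes past the threshold in a tissue, the 3 probes most alike to each member by r, and, outside this rule, MX2 and PAG1. The cow number pairs both tissues, since they come from the same animal. The correlation of their deviations from the group means had a median of 0.61 (0.11 to 0.87). The alternatives tried were loess after normexp background correction at an offset of 50, uncentred ratios, all probes unfiltered, a filter of 33 samples, the deposited ratios, slide or cow as a block, the first array alone, the methods' t-test, the fertility label or embryo size as a covariate and leaving out each pregnant cow in the embryo size contrast. Centring on the probes tested, the slide of the first array as a random block, leaving out cow Pregnant_3803, leaving out each cow in the fertility contrast and the within-slide correlations were added after seeing the data.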

Additional observations from a re-analysis of the deposited data

How the results depend on the processing

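In the plain fit, 1 member passed between the tissues, and 2 passed with the cow as a block, fixed or random, since KCNK12 joined LOC521910. The paired fit changed the call of no other member. With slide as a fixed block the pregnancy contrast called 153 probes in caruncular tissue in place of 1473, and 133 in intercaruncular tissue in place of 1071, where a random slide block gave 656. The methods' t-test with Benjamini-Hochberg adjustment called 1386 and 997 at the same thresholds. By construction the fixed slide block compares states only on slides that held both, 2 in caruncular and 1 in intercaruncular tissue. Under it the intercaruncular KCNK12 difference was 1.36. That intercaruncular slide held a single cyclic cow, so no call of a member is read there. In caruncular tissue PLXNA2 alone of the 4 members kept its call, which is no test, since this contrast chose the probe. The call of 1 member by embryo size in intercaruncular tissue (PLXNA2) became 0 without the filter and lay between 0 and 1 when a cow was left out. Of the 8 relations with OXTR that passed, 5 did so without the 2 farthest samples. LOC521910 had no value under the filter of 33 samples, which it missed.

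The values whose direction turned had not passed in any of these fits, other than that of KCNK12 above. With slide as a fixed block, large less small was 0.02 for PLXNA2 in caruncular tissue, and -0.04 for KCNK12 and -0.14 for EE981171 in intercaruncular tissue. Under the same block, fertile less sub-fertile was 0.44 for LOC521910 in caruncular tissue, and 0.19 for KCNK12 and 0.69 for PLXNA2 in intercaruncular tissue. With the fertility label as a covariate, large less small was -0.09 for EE981171 in caruncular tissue, and -0.22 for KCNK12 and -0.24 for EE981171 in intercaruncular tissue. When a cow was left out, large less small ranged in caruncular tissue from -0.52 to 0.62 for KCNK12 and from -0.28 to 0.32 for EE981171, and in intercaruncular tissue from -0.42 to 0.51 and from -0.42 to 0.42, while fertile less sub-fertile for PLXNA2 in intercaruncular tissue ranged from -0.34 to 0.12. The tissue difference of PLXNA2 was -0.01 with normexp and loess. In intercaruncular tissue of cyclic cows the r of PLXNA2 with OXTR was 0.11 without the 2 farthest samples and 0.06 within slides, and that of LOC521910 was -0.12 within slides. The cause of these shifts was not tested. Low signal limits LOC521910 most, in caruncular tissue of pregnant cows.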

Other observations

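Each member probe was printed at 2 spots on every array, and their log2 ratios differed by a median of 0.06 for KCNK12, 0.11 for PLXNA2, 0.05 for EE981171 and 0.12 for LOC521910. The widest gap between spots was 1.37 for LOC521910, against 0.52 for KCNK12, 0.43 for PLXNA2 and 0.24 for EE981171.

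Among cyclic cows, LOC521910 and EE981171 parted most in cow Non-Pregnant_3811, which had the lowest LOC521910 of the cyclic cows in each tissue, -1.83 in caruncular and -1.25 in intercaruncular tissue. Its EE981171 was at 1.86 and 1.77 and its KCNK12 at 1.64 and 1.61. Cow Non-Pregnant_1940 had the highest caruncular LOC521910, at 2.49, with 2.23 in intercaruncular tissue, beside EE981171 at 2.14 and 2.03. These cows were picked after their values were seen, and the values are given without a test.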
